A study of Mus musculus with 8 samples.

Results

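The TRAV and TRAJ segments of DN4 thymocytes were read from the assembled T cell receptor contigs of the knock-in (KI) and wild-type (WT) DN4 libraries, by taking every TRA contig that was marked productive and had a TRAV and a TRAJ assignment. The rule found 126 segments, 122 of them in KI and 118 in WT cells, out of 160 V and J segments of all receptor chains read in the series. They were joined into 754 productive TRA chains in 682 cells, with 395 chains in 362 KI cells and 359 chains in 320 WT cells. The study sorted DN4 (CD44-CD25-) and DN3 (CD44-CD25+) cells, both lacking CD4 and CD8, from the thymus of mice with a Ser389Ala exchange in the kinase GSK3B (KI) and of C57BL/6J mice (WT). Each of the 4 groups gave 1 library of 5′ gene expression and 1 of receptor sequence, and the age, sex and number of mice are not given in the sources used here. The title of the series names the diversity of the β and α chain repertoire as its subject. With 1 library per group no difference between groups could be tested; all intervals are 95% intervals that cover counting error only, and cells of 1 library share their mice and preparation.

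The T cell receptor α chain is made by joining 1 V segment (TRAV) to 1 J segment (TRAJ), with no D segment between them. Because the V segments lie upstream of the J segments, a join can be replaced by a later one between a V farther upstream and a J farther downstream, so that joining is known to move outward on each chromosome, and both chromosomes can rearrange. In the main αβ lineage this happens mostly at the double-positive stage after DN4, whereas the δ chain genes, which lie between the TRAV and the TRAJ segments, are joined earlier, and some V segments (named TRAV-DV) serve both chains.

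All segments lie on chromosome 14 of GRCm38, on the plus strand, and were ranked along it with the GENCODE vM21 annotation. The 128 annotated TRAV span chr14:52427928-53977678, and the 60 annotated TRAJ span chr14:54155005-54218842. The V ranks were cut into 3 groups: V far from the J region (TRAV1 to TRAV8D-2, 43 segments), middle V (TRAV16D-DV11 to TRAV6-4, 43 segments) and V near the J region (TRAV7-4 to TRAV23, 42 segments). The J segments were cut into those near the V region (TRAJ61 to TRAJ43, 19 segments), middle J (TRAJ42 to TRAJ23, 20 segments) and J far from the V region (TRAJ22 to TRAJ1, 21 segments).

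Examples of the joins show what the chains look like. The nucleotides from the start to the end of the CDR3, the loop that spans the join, are given with the bases that match neither the V nor the J germline (untemplated bases) in capitals. The first 3 chains, from cluster 5, show far V joined to far J in both genotypes and near V joined to near J in WT.
KI TRAV8D-2 to TRAJ15: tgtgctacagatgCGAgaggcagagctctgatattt
WT TRAV8D-2 to TRAJ4: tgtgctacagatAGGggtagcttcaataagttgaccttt
WT TRAV12-2 to TRAJ58: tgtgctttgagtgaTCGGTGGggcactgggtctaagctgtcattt
TRAV8D-2, the far V that lies nearest to the J region, is at chr14:53042428-53042891, TRAJ15 at chr14:54204422-54204481 and TRAJ4 at chr14:54216291-54216353. TRAV12-2 lies at chr14:53616315-53616914 and TRAJ58 at chr14:54157280-54157342. These 3 chains were supported by 19, 20 and 20 unique molecular identifiers (UMIs).

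The invariant chain of NKT cells, TRAV11 joined to TRAJ18, was met with 7 nucleotide forms, shown because they differ only at the join.
TRAV11 to TRAJ18, form 1: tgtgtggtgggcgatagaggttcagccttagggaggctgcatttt
TRAV11 to TRAJ18, form 2: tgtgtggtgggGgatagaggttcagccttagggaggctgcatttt
TRAV11 to TRAJ18, form 3: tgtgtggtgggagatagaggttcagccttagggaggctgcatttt
TRAV11 to TRAJ18, form 4: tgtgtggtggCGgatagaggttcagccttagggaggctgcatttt
TRAV11 to TRAJ18, form 5: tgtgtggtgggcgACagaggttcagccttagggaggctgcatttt
TRAV11 to TRAJ18, form 6: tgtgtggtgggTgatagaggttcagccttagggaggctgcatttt
TRAV11 to TRAJ18, form 7: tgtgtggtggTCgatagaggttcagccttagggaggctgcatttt
TRAV11 lies at chr14:53519303-53519859 and TRAJ18 at chr14:54200777-54200842. The forms 1 to 3 were found in 5, 3 and 2 cells and the forms 4 to 7 in 1 cell each.

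The last set holds the 6 chains with 13 or more untemplated bases, and the δ diversity segment TRDD2 (chr14:54122226-54122241), printed for comparison from the GENCODE vM21 transcripts.
TRDD2: ATCGGAGGGATACGAG
KI TRAV21-DV12 to TRAJ16: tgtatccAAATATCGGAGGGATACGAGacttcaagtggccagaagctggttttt
KI TRAV13-4-DV7 to TRAJ28: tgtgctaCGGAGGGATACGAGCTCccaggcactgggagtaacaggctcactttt
KI TRAV16 to TRAJ52: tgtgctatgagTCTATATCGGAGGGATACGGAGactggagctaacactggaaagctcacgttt
KI TRAV21-DV12 to TRAJ49: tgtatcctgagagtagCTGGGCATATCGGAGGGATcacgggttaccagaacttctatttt
KI TRAV16 to TRAJ49: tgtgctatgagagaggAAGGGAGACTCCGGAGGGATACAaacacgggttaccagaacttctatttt
KI TRAV12-3 to TRAJ48: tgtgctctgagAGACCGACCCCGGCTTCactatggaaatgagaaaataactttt

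The productive TRA chains sat mainly in 1 deposited cluster. In cluster 5, 265 of 328 KI cells (80.8%, 76.1 to 84.9) and 269 of 324 WT cells (83.0%, 78.5 to 86.9) had a productive TRA chain. In cluster 2 the share was 6.25% of 976 KI cells (61 cells, 4.81 to 7.96) and 5.21% of 595 WT cells (31 cells, 3.57 to 7.31). The remaining clusters together had 29 TRA cells of 1273 in KI (2.28%) and 17 of 558 in WT (3.05%). The intervals of cluster 5 lay above those of every other cluster with more than 10 cells, and the KI and WT intervals overlapped in each of these 3 classes.

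**Figure D1:**
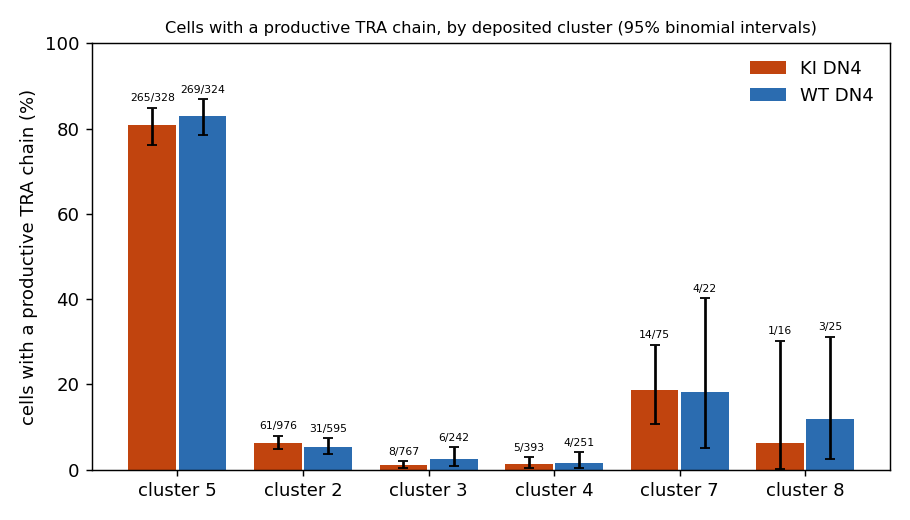
Share of DN4 expression cells with a productive TRA chain (vertical axis, %) in 6 deposited clusters, leaving out clusters 0, 1, 6 and 9, which held 1 KI and 0 WT TRA cells, with KI bars left of WT bars, with exact binomial 95% intervals and the number of TRA cells over all cells above each bar. Cluster 5 stands at 80.8% in KI and 83.0% in WT, and the next highest, cluster 7, at 18.7% and 18.2%.

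The expression libraries held 2577 KI and 1477 WT cells, with 30402236 and 16411164 UMIs in all, and 13.8% of KI and 21.5% of WT DN4 cells had a productive TRA chain. A further 7 KI and 3 WT cells with a TRA chain were not in the deposited table of cells. A TRA chain rested on a median of 6 UMIs in both libraries, whereas a cell's TRB chain rested on 38 in KI and 32 in WT. Of the receptor barcodes, 5 occurred in more than 1 receptor library, and 1 KI and 0 WT cells with a TRA chain were among them; 54 barcodes occurred in more than 1 expression library. Scrublet called 1.71% of KI and 1.35% of WT DN4 cells doublets. In DN3 cells the same rule found 2 chains in KI and 1 in WT, TRAV21-DV12 to TRAJ39 and TRAV11 to TRAJ18 in KI and TRAV15-2-DV6-2 to TRAJ49 in WT, each with at most 3 UMIs.

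Cluster 5 is given by its number. The summed level of the list of NK, innate lymphoid and NKT markers there was 1622 CPM (UMIs per 1000000 UMIs of the summed cells) in KI and 1548 in WT, with Il2rb, the shared β chain of the receptors for interleukins 2 and 15, at 556 CPM in KI and 554 in WT. Zbtb16, the transcription factor of NKT cells, was at 5.66 CPM in KI and 7.25 in WT, and Klrb1c, which encodes NK1.1, at 2.12 and 4.23. Ptcra, the α chain partner of the pre-T cell receptor, was at 0 in KI and at 0.605 CPM in WT. Trac, the α constant gene, was at 258 CPM in KI and 325 in WT. Cd4 and Cd8a, whose products the sort selected against, were at 6.37 and 12 CPM in KI and at 6.65 and 9.07 CPM in WT. In cluster 2 the summed level of γδ T cell markers was 1325 CPM in KI and 1617 in WT, against 82.8 and 71.9 in cluster 5, and that of the NK, innate lymphoid and NKT list was 516 in KI and 497 in WT. The list of mature αβ T cell markers was higher still in cluster 2, at 2746 CPM in KI and 3794 in WT. In cluster 5 it was at 1624 and 2111 CPM. From such sums alone, fewer expressing cells and less RNA per cell cannot be told apart. By cell, Il2rb had a UMI in 66.8% of KI and 67.9% of WT cells of cluster 5, against 24.3% and 21.7% in cluster 2. Nkg7, of the same list, went the other way, with 39.3% and 39.8% in cluster 5 against 65.4% and 70.6%.

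Nearly every TRA cell also had a β chain. In cluster 5, 261 of 265 KI and 260 of 269 WT cells with TRA had a productive TRB chain. In cluster 2 the numbers were 58 of 61 and 28 of 31. The transcript of the assigned V gene could be looked for in the expression library of the same cell for the 61 used TRAV genes that the matrix lists. A UMI of that V was present for 84.0% of such chains in KI cluster 5 (173 of 206) and 92.9% in WT cluster 5 (209 of 225). In other TRA cells of the class the same V genes had a UMI in 0.696% of cell and gene pairs in KI and 0.784% in WT, at median depths of 3816 and 4734 UMIs per cell. The receptor and expression libraries thus held the same V for most chains.

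The used segments were many and each was rare. Of 108 annotated TRAV genes 83 were used, 79 in KI and 75 in WT, and 71 in both. Of 51 TRAJ genes 43 were used, and all 43 in both libraries; no annotated pseudogene was used. A TRAV had at most 28 chains, a median of 7, and 54 of the 83 had fewer than 10. A TRAJ had at most 53 chains and a median of 16. V and J were combined in 586 of 3569 possible pairs of used segments, and 413 of the 491 pairs of cluster 5 were met with 1 rearrangement. The most repeated pairs there, TRAV12-2 to TRAJ30 and TRAV3D-3 to TRAJ22, had 5 rearrangements each.

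The outermost V were rarely used: TRAV1, farthest from the J region, had 3 KI chains and 1 WT chain, and TRAV23, nearest to it, had 0. Of the 25 TRAV genes that were not used, 21 are D or N copies, that is, members of the duplicated blocks of V genes in the middle of the C57BL/6 locus, and 17 are identical over their last 250 bases to a V that was used. Of the used V, 41 have a copy that differs in at most 3 of those bases, and for 39 of them that copy lies in another rank group. These 39 carried 350 of the 754 chains, so the position of their V is uncertain. The share of far V and the correlation of V rank with J rank are also given without them. The J use of each V group and the V ranks of chains within a cell are given only with them. The TRAJ genes not used were TRAJ59, TRAJ46, TRAJ41, TRAJ29, TRAJ25, TRAJ20, TRAJ19 and TRAJ3.

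Cluster 5 used V from the whole locus. Near V made up 46.7% of 291 KI chains and 51.1% of 305 WT chains, and far V 33.3% (27.9 to 39.1) in KI and 27.9% (22.9 to 33.3) in WT. Without V that have a near-identical copy in another rank group, far V made up 9.21% in KI and 5.20% in WT. Most used far V have such a copy and most used near V do not. Leaving these V out therefore lowers the share by itself, and the lower values do not estimate far V use. D copies made up 31.6% of KI and 28.5% of WT chains and N copies 16.2% and 14.1%. Several N genes without chains, TRAV12N-1, TRAV3N-3 and TRAV4N-4 among them, are identical over their last 250 bases to a used D gene. Those bases cannot tell the chains of such pairs apart. The shares of D and N copies, and of far and middle V, therefore depend on how V was assigned. The most used V were TRAV12-2 (14 KI and 12 WT chains), TRAV16N (9 and 12), TRAV12-1 (11 and 9), TRAV16 (9 and 11) and TRAV13-1 (9 and 10). TRAV16 and TRAV16N differ in 3 of their last 250 bases, and with 19 to 26 chains each these 5 segments are not separated by counting error.

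J use in cluster 5 peaked in the middle of the region. Near J made up 25.8% of KI and 25.2% of WT chains, middle J 41.9% and 43.6%, and far J 32.3% and 31.1%, and the median J number was 30 in both. In steps of 10 J numbers the highest share was TRAJ30 to TRAJ21, with 31.3% (26.0 to 36.9) in KI and 29.5% (24.4 to 35.0) in WT. The lowest was TRAJ10 to TRAJ1 in KI, with 8.25% (8.85% in WT), and TRAJ60 to TRAJ51 in WT, with 7.87% (13.1% in KI). The steps and groups hold unequal numbers of used J, and TRAJ60 to TRAJ51 holds the fewest of the steps. These are therefore not shares per segment. The most used J were TRAJ22 (24 KI and 19 WT chains), TRAJ23 (15 and 20), TRAJ26 (21 and 9), TRAJ30 (11 and 18) and TRAJ33 (12 and 16). TRAJ22 and TRAJ23 are neighbours, at chr14:54197248-54197307 and chr14:54196081-54196140.

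**Figure D2:**
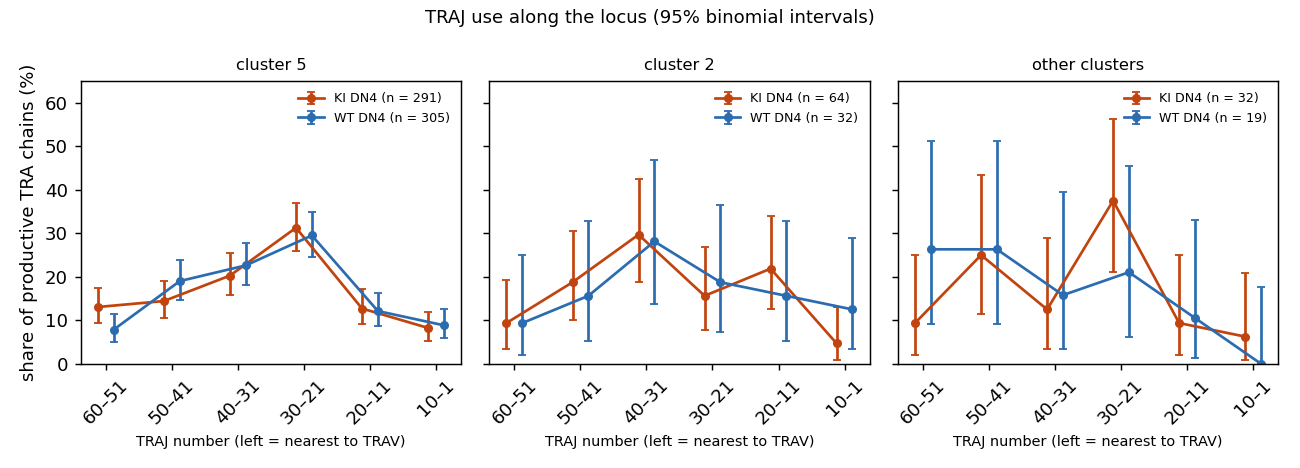
Share of productive TRA chains (vertical axis, %) whose J lies in each step of 10 TRAJ numbers, in order along the locus from the J nearest to V at the left, for cluster 5, cluster 2 and the other clusters, KI points left of WT points, with exact binomial 95% intervals. In cluster 5 both genotypes peak at TRAJ30 to TRAJ21, with 31.3% and 29.5%, and the intervals of the classes with fewer chains are wide.

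V and J were paired by position. In cluster 5, V near the J region were joined to near J in 46.3% of KI chains (63 of 136, 37.7 to 55.1) and 40.4% of WT chains (63 of 156, 32.6 to 48.5). V far from the J region were joined to near J in 11.3% of KI chains (11 of 97, 5.80 to 19.4) and 12.9% of WT chains (11 of 85, 6.64 to 22.0), and to far J in 50.5% and 50.6%. Near V were joined to middle J in 40.4% of KI chains (55 of 136, 32.1 to 49.2) and 46.2% of WT chains (72 of 156, 38.2 to 54.3), and to far J in 13.2% and 13.5%. The intervals of near and far V for near J did not overlap in either genotype, nor did those for far J.

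The middle V had near J in 1 of 58 KI chains (1.72%) and 3 of 64 WT chains (4.69%), with intervals that overlap those of far V. The median J number was 22 for far V in KI and in WT, 23 for middle V in both, and 40 in KI and 38.5 in WT for near V. Over the chains of cluster 5 the Spearman correlation of V rank with J rank was -0.53 in KI (291 chains) and -0.48 in WT (305 chains), where a negative value means that V far from J went with J far from V. These chains share a library, and cells with more than 1 chain enter once for each. Without V that have a near-identical copy in another rank group the values were -0.64 in KI and -0.53 in WT. Few far V chains remained for these values.

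**Figure D3:**
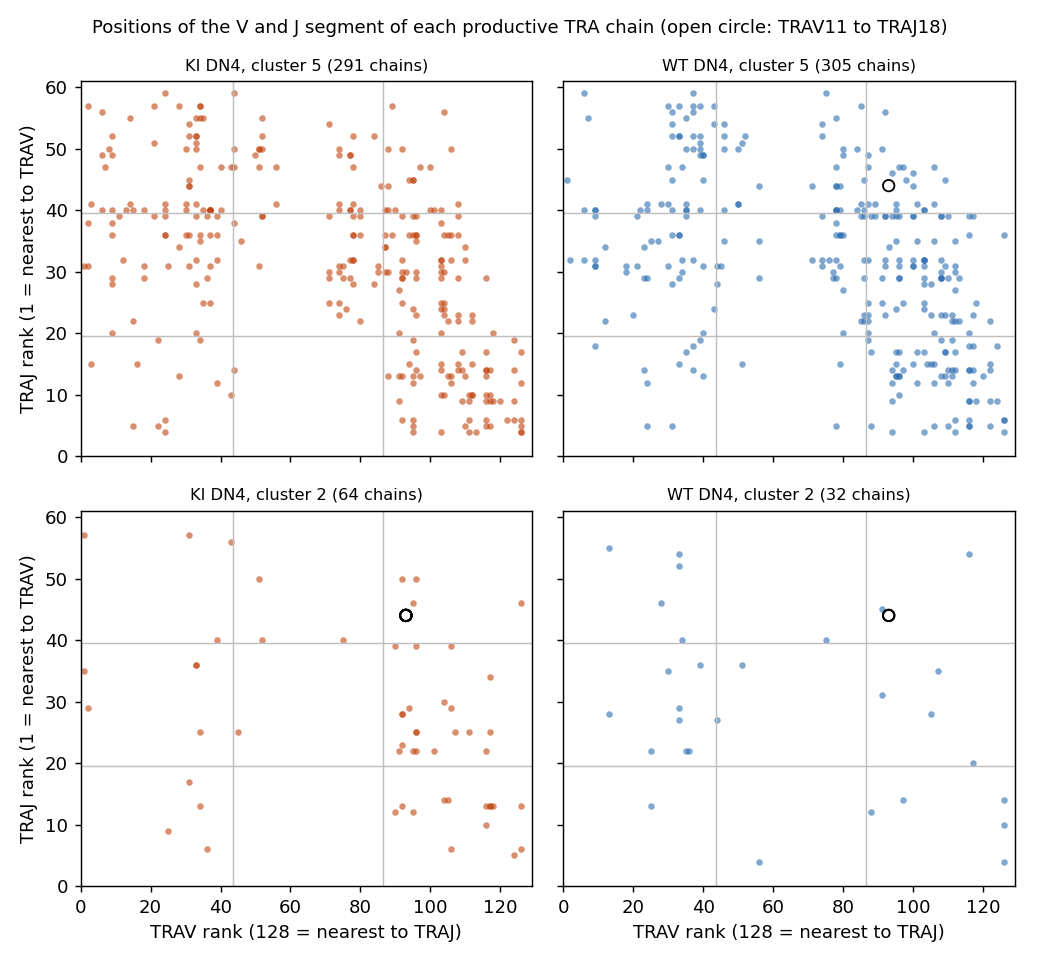
Rank of the V (horizontal axis, 128 nearest to TRAJ) against rank of the J (vertical axis, 1 nearest to TRAV) of every productive TRA chain, 1 point a chain, KI left and WT right, cluster 5 above and cluster 2 below, with grey lines between the rank groups and an open circle at TRAV11 to TRAJ18. In cluster 5 the lower left of both panels, far or middle V with near J, is sparse, with 12 KI and 14 WT chains, and the correlation is -0.53 in KI and -0.48 in WT.

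The correlation had the same sign in the other classes, with fewer chains. It was -0.33 in KI (64 chains) and -0.25 in WT (32 chains) for cluster 2, and -0.62 (32 chains) and -0.41 (19 chains) for the other clusters. Intervals from the Fisher transform, which treats chains as independent, included 0 in WT, with -0.55 to 0.10 and -0.73 to 0.05. In KI they did not, with -0.53 to -0.09 and -0.80 to -0.35. Without V that have a near-identical copy in another rank group, the WT value of cluster 2 was more strongly negative, as given at the end. That value rests on only part of the 32 chains, so it is no firmer. In cluster 2, near V were joined to near J in 14 of 47 KI chains (29.8%, 17.3 to 44.9) and 5 of 14 WT chains (35.7%, 12.8 to 64.9), against 46.3% and 40.4% in cluster 5, with overlapping intervals. Far V made up 20.3% of KI chains in cluster 2 (13 of 64) and 43.8% of WT chains (14 of 32), and near V 73.4% in KI and 43.8% in WT. For near V the KI interval of cluster 2 (60.9 to 83.7) did not overlap that of cluster 5 (40.9 to 52.6). The WT intervals overlapped. The near V of KI cluster 2 include 9 TRAV11 to TRAJ18 chains, described further on. In the other clusters far V made up 40.6% in KI (13 of 32) and 15.8% in WT (3 of 19), and near J 31.3% and 52.6%, 10 chains each.

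A second productive TRA chain was read in cluster 5 in 26 of 265 KI TRA cells (9.81%, 6.51 to 14) and 36 of 269 WT TRA cells (13.4%, 9.55 to 18.0), with overlapping intervals. Cluster 2 had 3 of 61 KI and 1 of 31 WT cells, and the other clusters 3 of 29 and 2 of 17. The chains of such a cell can stem from both chromosomes or, in a doublet, from different cells. A second productive TRB chain, which a doublet can also bring, was present in 0 of the 26 KI and 1 of the 36 WT cells of cluster 5, against 12 of 239 KI (5.02%) and 9 of 233 WT cells (3.86%) with 1 TRA chain. In 3 of the 26 KI and 7 of the 36 WT cells the chains had equal UMIs, and the chain with fewer UMIs had a median of 5 in KI and 4 in WT.

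The chains of 1 cell used J that lay close together. Their J ranks were a median of 7 apart in KI and 7.5 in WT cluster 5, against 15 and 14 for chains taken from different cells of the same class. J ranks within 5 of each other were found in 10 of 26 KI cells (38.5%, 20.2 to 59.4) and 15 of 36 WT cells (41.7%, 25.5 to 59.2), against 20.9% and 20.8% of pairs from different cells. The Spearman correlation of J rank between the chains of a cell was 0.68 in KI (26 cells) and 0.71 in WT (36 cells), and that of V rank was 0.52 and 0.51. Both chains lay in the same J group in 19 of 26 KI cells (73.1%) and 19 of 36 WT cells (52.8%), against 34.4% and 34.9% of pairs from different cells. The V ranks were a median of 15.5 apart in KI and 11 in WT, against 36 and 31, so that both segments were closer within cells.

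**Figure D4:**
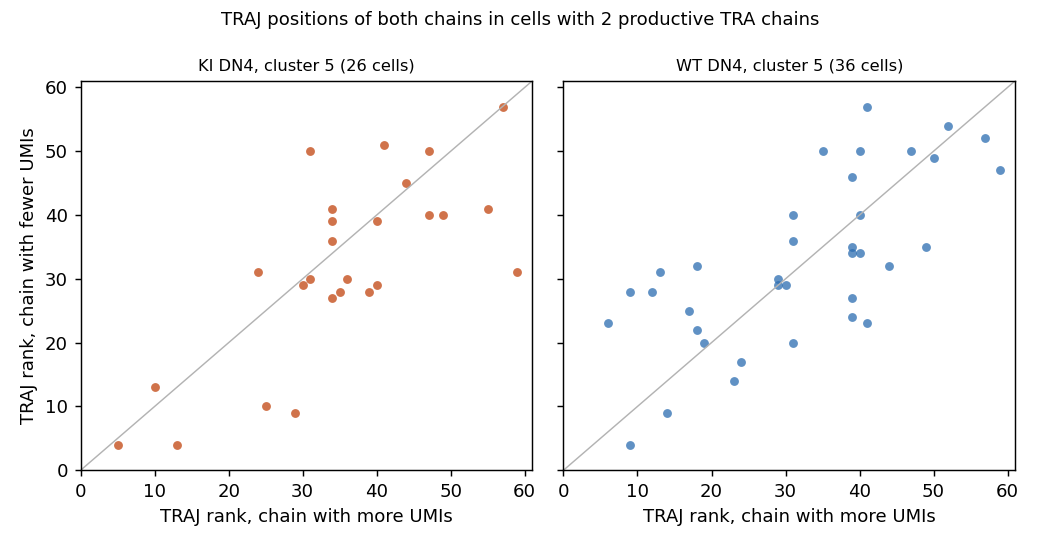
TRAJ rank of the chain with more UMIs (horizontal axis) against that of the chain with fewer UMIs (vertical axis) in cluster 5 cells with 2 productive TRA chains, 1 point a cell, 26 KI cells left and 36 WT cells right, with the line of equal rank in grey. The points follow the line in both panels, with a Spearman correlation of 0.68 in KI and 0.71 in WT.

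A pair of chains from each genotype illustrates the closeness of J, each with J ranks 7 apart and untemplated bases in capitals. Their V ranks lie 2 apart in the KI cell. In the WT cell they lie 58 apart, farther than the median of 31 for different WT cells.
KI cell, TRAV13N-3 to TRAJ38: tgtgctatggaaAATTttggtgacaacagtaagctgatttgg
KI cell, TRAV6N-7 to TRAJ31: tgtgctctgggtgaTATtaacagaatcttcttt
WT cell, TRAV8D-2 to TRAJ38: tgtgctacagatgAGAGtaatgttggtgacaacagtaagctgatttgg
WT cell, TRAV4-3 to TRAJ45: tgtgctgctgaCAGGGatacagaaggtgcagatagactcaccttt
The same closeness was seen for TRA contigs not marked productive, called nonproductive here. Whether their joins can make a protein was not tested. A nonproductive TRA contig accompanied the productive one in 101 of 239 KI (42.3%) and 83 of 233 WT cells (35.6%) of cluster 5 with 1 productive chain. Its J lay a median of 6 ranks from the productive J in KI (99 pairs with both positions) and 8 in WT (83 pairs), against 15 and 14 for different cells. J ranks within 5 made up 47.5% of these pairs in KI and 36.1% in WT, against 20.5% and 20.6% of pairs from different cells.

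The use of single segments was compared between cluster 5 and all other clusters together, for segments with at least 10 chains in both sets together and at a 2-fold difference of shares. In KI cells 23.1% of 13 TRAV (3 segments, all lower in cluster 5) and 29.4% of 17 TRAJ (5 segments, 1 higher and 4 lower) were apart. In WT cells 14.3% of 7 TRAV (1 segment, lower) and 40% of 15 TRAJ (6 segments, 3 higher and 3 lower) were apart. At these chain numbers many segments pass 2-fold, and among these the interval excluded a ratio of 1 for 4 segments, all in KI cells: TRAV11 (1 against 9 chains), TRAJ18 (4 against 9), TRAJ37 (7 against 8) and TRAJ40 (5 against 7).

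TRAJ18 and TRAJ40 were the segments at least 2-fold lower in cluster 5 in both genotypes. TRAJ18 made up 1.37% of KI cluster 5 chains against 9.38% elsewhere, and 2.30% of WT cluster 5 chains against 7.84%. TRAJ40 made up 1.72% against 7.29% in KI and 2.62% against 7.84% in WT. All 13 TRAJ18 chains outside cluster 5 belong to the invariant receptor described further on.

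Between KI and WT, 17.2% of 29 TRAV (5 segments) and 15.6% of 32 TRAJ (5 segments) were 2-fold apart over all DN4 cells, and within cluster 5 14.3% of 21 TRAV (3 segments) and 17.2% of 29 TRAJ (5 segments). TRAJ26 was the only one of these whose interval excluded 1, with 28 KI and 11 WT chains (2.31-fold, 1.12 to 5.15), and 21 and 9 chains in cluster 5 (2.45-fold, 1.07 to 6.07). It was read from many segments without a test and from 1 library per genotype. The segments furthest apart were TRAV9-2 (2 KI and 8 WT chains), TRAV14D-2 (3 and 10), TRAV12-3 (10 and 3), TRAJ27 (4 and 11), TRAJ52 (9 and 3) and TRAV6-6 (17 and 6), each with an interval that includes 1. In cluster 2, 1 TRAV and 1 TRAJ had at least 10 chains, TRAV11 and TRAJ18 with 9 KI and 3 WT chains each, and 0 of each were apart.

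Cluster 2 held the invariant NKT receptor. TRAV11 and TRAJ18 were its most used segments, with 12 of 96 chains each, and all 12 were the TRAV11 to TRAJ18 join. It was found in 9 of 61 KI (14.8%, 6.98 to 26.2) and 3 of 31 WT TRA cells (9.68%, 2.04 to 25.8) of cluster 2, in 0 of 265 KI and 1 of 269 WT TRA cells of cluster 5, and in 1 further WT cell of cluster 7. All 14 chains had a CDR3 of 45 bases, and the 7 nucleotide forms printed near the opening translate into 3 proteins, 1 of which was shared by 12 chains.

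The β chains of the invariant cells were mostly of the TRBV13 and TRBV29 groups, which invariant NKT cells are known for, and 0 were of TRBV1, the other group known from these cells. TRB was read in 12 of the 14 cells, with 12 different rearrangements. TRBV29 was used by 4, TRBV13-1 by 3, TRBV13-3 by 1 and TRBV31 by 1, and 3 chains were assigned jointly to TRBV12-2 and TRBV13-2. With the joint assignments counted as TRBV13, the TRBV13, TRBV29 and TRBV1 groups made up 11 of the 12 chains (91.7%, 61.5 to 99.8), against 26 of 79 (32.9%) in the other TRA cells of cluster 2 and 175 of 542 (32.3%) in the other TRA cells of cluster 5. The receptor of MAIT cells, TRAV1 to TRAJ33, was found in 0 of 754 chains, which allows a share of up to 0.398%, while TRAV1 had 4 and TRAJ33 32 chains with other partners.

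The other TRA chains of cluster 2 were led by TRAV12D-3 and TRAV21-DV12 (6 chains each), TRAV6-6 and TRAV13-1 (5 each), TRAJ49 and TRAJ40 (8 each), TRAJ37 (7) and TRAJ22 (5). TRAV-DV segments, which the δ chain can also use, made up 15.6% of KI (10 of 64, 7.76 to 26.9) and 28.1% of WT chains (9 of 32, 13.7 to 46.7) there. In cluster 5 they made up 9.62% of KI (28 of 291, 6.49 to 13.6) and 10.5% of WT chains (32 of 305, 7.29 to 14.5), and in the other clusters 12.5% and 21.1%. The intervals overlapped between clusters 2 and 5 in both genotypes.

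The 6 chains with long untemplated runs, printed near the opening, were all from KI cells of cluster 2. They carried 17 to 23 untemplated bases and made up 6 of 62 resolved chains there (9.68%, 3.63 to 19.9). In cluster 5 the longest run was 12 bases in 286 KI chains and 11 in 300 WT chains. In WT cluster 2 the longest was 7 bases, and 0 of 30 chains reached 13, which allows a share of up to 10.0%, so the WT share there is not shown to differ. The limit of 13 bases was chosen after the values were seen, as longer than any chain of cluster 5.

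Of these 6 runs, 5 share a stretch with TRDD2, a D segment that is known from δ chains and that lies between the V and the J region. The shared stretch covers all 16 bases of TRDD2 in TRAV21-DV12 to TRAJ16, 14 bases in TRAV13-4-DV7 to TRAJ28 and in TRAV16 to TRAJ52, and 11 bases in TRAV21-DV12 to TRAJ49 and in TRAV16 to TRAJ49. TRAV12-3 to TRAJ48 shares at most 3 bases with either TRDD segment. Untemplated bases sharing 7 or more bases with a TRDD segment were found in 5 chains of KI cluster 2, in 1 chain of KI cluster 5 and 1 of WT cluster 5, and in 0 elsewhere. Each of the 6 cells had 1 TRB chain and 1 productive TRA chain with 5 to 17 UMIs, and 0 were called doublets. Whether these contigs were assembled correctly was not tested, since the reads were not used here. TRAV-DV segments were used by 3 of the 6, and TRAV16, used by 2, has a copy that differs in 3 bases.

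**Figure D5:**
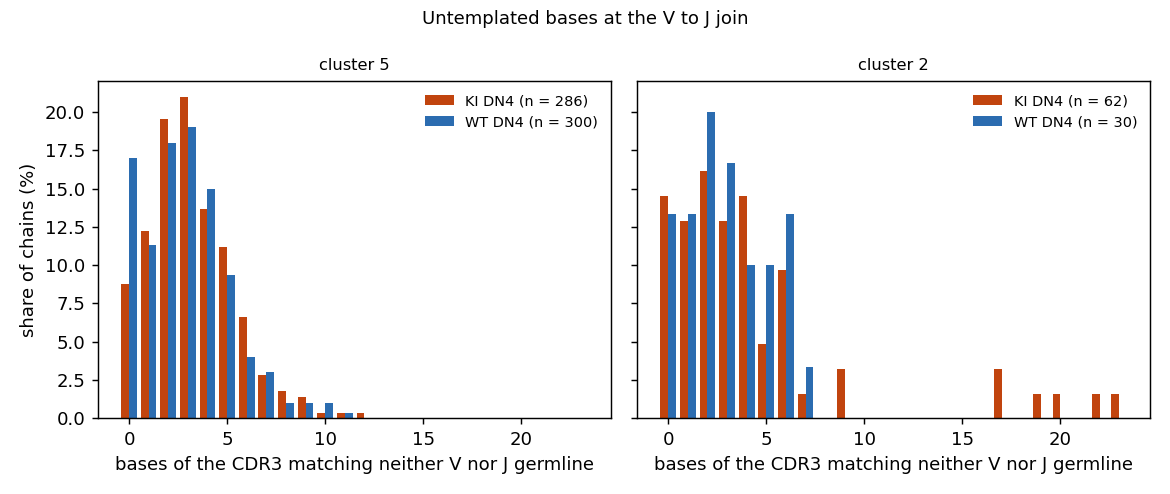
Share of chains (vertical axis, %) by the number of untemplated bases of the CDR3 (horizontal axis), KI bars left of WT bars, for cluster 5 (286 KI and 300 WT chains) and cluster 2 (62 KI and 30 WT chains). Chains with 0 untemplated bases make up 8.74% in KI and 17% in WT cluster 5, and the 6 chains with 17 or more bases are all from KI cluster 2.

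In cluster 5 chains with no untemplated base were rarer in KI, with 25 of 286 (8.74%, 5.74 to 12.6), than in WT, with 51 of 300 (17%, 12.9 to 21.7). The mean number of untemplated bases was 3.22 (SD 2.16 over 286 chains) in KI and 2.87 (SD 2.20 over 300 chains) in WT, and the median was 3 in both. The 2 intervals of the share did not overlap, but each genotype is 1 library and the spread between mice is not known. Without V that have a near-identical copy the shares were 8.89% in KI and 12.3% in WT, with overlapping intervals. With chains of at least 3 UMIs they were 10.1% (6.66 to 14.6) and 17.2% (12.9 to 22.3), which also overlap. The intervals overlapped as well for near V alone (6.72% and 13.2%) and within each of the J groups. KI was the lower in each of these. In cluster 2 the shares were 14.5% in KI and 13.3% in WT, and in the other clusters 12.5% and 11.1%.

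Few rearrangements were met in more than 1 cell: 8 of 741. In KI cluster 2, 2 cells shared both TRAV12D-3 to TRAJ26 and TRAV6-6 to TRAJ34 together with the same TRBV17 chain. In KI cluster 5, 2 cells shared TRAV16 to TRAJ48 and the same TRBV13-1 chain. TRAV3D-3 to TRAJ26 was found in 3 KI cells, 1 of them in cluster 5 and 1 not in the table of cells. TRAV6N-6 to TRAJ17 was found in 2 KI cells, both not in that table. The remaining repeats were 3 of the TRAV11 to TRAJ18 forms, whose cells had different TRB chains where one was read.

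The cells of cluster 2 with a TRA chain also differed from the cells of cluster 2 with no receptor chain read, a comparison chosen after the data were seen. It set 61 against 791 KI cells and 31 against 481 WT cells, with medians of 5144 against 4215 UMIs in KI and 5989 against 5194 in WT. Of 6062 genes at 20 CPM or more in either KI set, 9.45% were 2-fold apart (4.47% higher and 4.98% lower), and of 6414 genes in WT 13.1% (6.78% higher and 6.36% lower). Trdc, the δ constant gene that V to J joining of the α locus removes, was at 105 CPM in TRA cells against 557 CPM in KI, and at 144 against 611 CPM in WT, a log2 ratio of -2.40 in KI and -2.09 in WT. Zbtb16 was at 178 against 14.9 CPM in KI and 144 against 19.2 CPM in WT, a log2 ratio of 3.58 and 2.91. Without the invariant cells it was at 143 CPM in KI and 87.9 CPM in WT. Without those cells, 9.58% of 6035 genes were apart in KI (4.46% higher and 5.12% lower) and 12.9% of 6284 in WT (6.24% higher and 6.68% lower), and 6 of 7 measured γδ genes were lower in KI and 2 of 7 in WT.

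Among the list of genes of α chain joining and of the steps around it, 1 of 32 measured members was higher and 7 were lower in KI, and 3 were higher and 8 lower of 35 in WT, 1 of which is not named. Trdc, Themis, a signalling protein of the developing T cell receptor (log2 ratio -1.16 and -1.75), and Dclre1c, the end-joining nuclease Artemis (-1.39 and -1.11), were lower and Lef1, a transcription factor of the Wnt pathway, was higher (1.11 in KI and 1.0 in WT) in both genotypes. In KI alone Dntt, the polymerase that adds untemplated bases (-1.17), Hes1 (-1.23), Arpp21 (-1.03) and Endou (-1.14) passed 2-fold. In WT alone Trbc1 (-1.19), Trbc2 (-1.04), Lig4 (-1.66), Xrcc6 (-1.20), Cd8b1 (1.35) and Cd8a (4.63, from 6 against 3 UMIs) did. Whether these members differ between the genotypes was not tested.

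Of the marker lists, NK, innate lymphoid and NKT markers summed to 870 CPM in TRA cells against 484 CPM in KI and to 801 against 487 CPM in WT, with 4 of 5 measured members higher in KI and 3 of 4 in WT. Fcer1g, the Fc receptor γ chain, had log2 ratios of 4.21 in KI and 6.06 in WT and Il2rb 1.39 and 1.90, while Nkg7 was at -0.53 and -1.17. The γδ list summed to 573 against 1434 CPM in KI and 890 against 1698 CPM in WT, with 4 of 7 measured members lower in KI and 2 of 7 in WT. The mature αβ list summed to 1948 against 2892 CPM in KI and 2283 against 4106 in WT, with 1 and 4 of 8 measured members lower. The pre-T list summed to 335 against 381 CPM in KI and 402 against 548 in WT, and the cycling list to 70.2 against 64.4 CPM in KI and 127 against 51.1 in WT, where 3 of 3 measured members were higher. The B cell list summed to 27.0 against 54.1 CPM in KI and 12.7 against 41.8 in WT, and the myeloid list to 24.3 against 5.63 CPM in KI and 12.7 against 6.86 in WT.

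Outside clusters 5 and 2, TRA chains were sparse. Cluster 7, whose cells had high levels of the cycling list (2268 CPM in KI and 1655 in WT), had them in 14 of 75 KI (18.7%, 10.6 to 29.3) and 4 of 22 WT cells (18.2%, 5.19 to 40.3). The most used segments of the clusters other than 5 and 2 together were TRAV16N, TRAV12-3 and TRAV21-DV12 (3 chains each), TRAV12D-2 and TRAV9D-3 (2 each), TRAJ22 (5), TRAJ57, TRAJ45 and TRAJ26 (4 each) and TRAJ58 (3), of 51 chains. Clusters 3 and 4, called blasts here, had Ptcra at 88.9 and 70.8 CPM in KI and 108 and 107 CPM in WT, and held 13 KI and 10 WT cells with a TRA chain, beside 1147 and 483 cells without one.

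Near J were used by 5 of 13 chains (38.5%, 13.9 to 68.4) of the KI blasts and by 9 of 11 chains (81.8%, 48.2 to 97.7) of the WT blasts. Without doublets they were 2 of 8 in KI and 4 of 5 in WT. Near V were used by the same numbers, 5 of 13 and 9 of 11. The J numbers had a median of 37 in KI and 50 in WT, TRAJ22 was used by 4 KI and 0 WT chains, and the intervals of the near J shares overlapped. Doublets made up 5 of the 13 KI and 5 of the 10 WT blasts with a TRA chain, and 7 and 4 of them had 2 TRB chains, and the part of doublets in these chains was not tested.

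The blasts with a TRA chain were set against the blasts without one, at 20 CPM or more in either sum and 2-fold, which 8.32% of 5528 genes passed in KI (5.57% higher and 2.75% lower) and 11.1% of 5726 genes in WT (7.25% higher and 3.86% lower). Of the α chain joining list, 3 of 35 measured members were higher and 1 lower in KI, and 3 of 35 higher and 2 lower in WT. The early activation marker Cd69 was at 49.7 against 12.6 CPM in KI and 43.2 against 14.5 CPM in WT, and Cd5, whose level follows receptor signalling, at 39.1 against 16.0 CPM in KI and 64.9 against 16.5 CPM in WT. Rag1, the recombinase subunit, was at 14.2 against 40.1 CPM in KI and 17.3 against 49.8 CPM in WT, from 4 UMIs in each set of TRA cells. Rag2, the other subunit, had a log2 ratio of 1.19 in KI and 0.94 in WT, Trac 0.84 and 2.56, and Ptcra -0.14 and -1.07. Without doublets, 8 KI and 5 WT TRA blasts were left. Cd5 was then at 35.2 against 15.4 CPM in KI, and in WT it had 0 UMIs in the TRA blasts against 16.2 CPM, so all 15 UMIs of Cd5 in the WT TRA blasts were in doublets. Trac was at 29.3 against 25.4 CPM in KI and 67.1 against 20.9 CPM in WT, from 5 and 8 UMIs in the TRA blasts. Without doublets Cd69 was at 46.9 against 11.8 CPM in KI and 50.4 against 14.3 CPM in WT. Rag1 was at 17.6 against 40.5 CPM in KI and 8.39 against 49.9 CPM in WT, from 3 and 1 UMIs in the TRA blasts, and Rag2 at 23.5 against 9.53 and 33.6 against 13.4 CPM, from 4 UMIs each. The share of members apart is near that of all genes and is not a result about the list.

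Some markers of cluster 5, but not all, were higher in the blasts with a TRA chain. The NK, innate lymphoid and NKT list summed to 110 CPM in TRA blasts against 7.22 CPM in KI and 138 against 8.92 CPM in WT, with Il2rb at 49.7 against 0.802 CPM and 64.9 against 1.47 CPM. Il2rb had a UMI in 5 of 13 KI and 5 of 10 WT TRA blasts, in 13 of 1147 KI and 5 of 483 WT blasts without TRA, and in 66.8% of KI and 67.9% of WT cluster 5 cells. Without doublets it had a UMI in 2 of 8 KI (11.7 CPM) and 1 of 5 WT TRA blasts (16.8 CPM). Nkg7 had a UMI in 5 of 13 KI and 2 of 10 WT TRA blasts, and without doublets in 4 of 8 and 1 of 5. Ccl5, of the same list and at 237 CPM in KI and 230 in WT cluster 5, had 0 UMIs in the TRA blasts. Fcer1g, at 330 and 297 CPM in cluster 5, had a UMI in 1 KI and 1 WT TRA blast. Without doublets it had 0 UMIs in both. Zbtb16 had 1 UMI in the KI and 0 in the WT TRA blasts. The mature αβ list summed to 898 against 785 CPM in KI and 1427 against 1116 in WT, the γδ list to 163 against 216 CPM and 329 against 259, the pre-T list to 799 against 871 CPM and 1081 against 1057, and the cycling list to 959 against 1058 CPM and 822 against 980. The B cell list summed to 14.2 against 15.5 CPM in KI and 21.6 against 17.1 in WT, and the myeloid list to 3.55 against 0.579 CPM and 0 against 0.784. The part of cluster 5 RNA in these blasts was not tested.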

How the data were processed

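Single-cell 5′ expression and receptor libraries of sorted DN4 and DN3 cells, 1 of each per genotype and stage, were used. Per the submitters' processing notes the authors used Cell Ranger 3.1.0 and 6.0.1 and the mm10 build; which made which file is not given in the sources used here. The authors deposited raw UMI counts per gene and cell, cluster numbers and cell cycle phases, the last 2 with no method stated, and per the file headers the contig tables give UMI counts per assembled chain. Cell and gene filters before deposit are not given in the sources used here.

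Contigs were joined to cells by library and barcode with Python 3.11.15 and pandas 2.3.3. Productive TRA contigs with a TRAV and a TRAJ were kept, doublets were called per DN4 library with Scrublet in scanpy 1.11.5 and left in, and segments were matched by name to GENCODE vM21 on GRCm38. Shares have exact binomial (Clopper-Pearson) and ratios exact conditional binomial 95% intervals; both cover counting error only, and reads of 1 library say nothing of the spread between mice. A count of 0 allows 3 counts. Segments with 10 chains, and genes at 20 CPM of summed UMIs, were called apart at 2-fold. Untemplated bases are those between the longest exact match of the CDR3 start to the assigned V and of its end to the assigned J; 739 of 754 chains were resolved. V copies were compared over their last 250 bases with edlib 1.3.9.post1. The ratio calls and their intervals were tested on simulated data.

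Named segments are the 5 most used TRAV and TRAJ of each class, up to 8 of each that were 2-fold apart between cluster 5 and the other clusters in both genotypes, the 6 furthest apart between KI and WT, those of invariant NKT and MAIT cells, and the outermost; long runs, repeats and single marker genes were chosen after their values were seen; every joining-list gene at 2-fold is named, except 1 that is not reported here. The members, the lists and the comparisons were chosen with earlier results of these data known. Alternatives were other UMI, chain and CPM minimums, distinct rearrangements, 1 chain per cell, doublets or shared barcodes left out, other position scales and merged V copies.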

Additional observations from a re-analysis of the deposited data

Results flagged for a closer look

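In these results the value of cluster 5 minus that of another class of cells had opposite signs in KI and WT, with 1 library each, so that no difference between the genotypes was tested. For these shares, the counting intervals of cluster 5 and of the other class overlapped within each genotype. Overlap alone does not decide whether the classes differ, and no difference between classes was tested. The share of far V in cluster 5 minus that in cluster 2 was 13 percentage points in KI and -15.9 in WT, a difference of 28.9. The share of far V in cluster 5 minus that in the other clusters was -7.29 points in KI and 12.1 in WT, a difference of -19.4, from 32 KI and 19 WT chains in the other clusters. The share of near J in cluster 5 minus that in cluster 2 was -2.35 points in KI and 3.37 in WT, a difference of -5.72. The correlation of V and J rank in cluster 5 minus that in the other clusters was 0.09 in KI and -0.07 in WT, a difference of 0.17. The share of TRA cells with 2 TRA chains in cluster 5 minus that in the other clusters was -0.53 points in KI and 1.62 in WT, a difference of -2.15, from 3 KI and 2 WT such cells in the other clusters. All of these rest on few chains outside cluster 5, and V ranks of near-identical copies are uncertain.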

How the results depend on the processing

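Of 287 recomputed values, 224 stayed the same, that is, within the interval of the value reported or, for counts, within 1.5 times of it, and 63 moved. A change of sign outside that interval was possible only for the correlations, and 0 were found. Shares and counts have no sign to change, and the signs of differences between classes or genotypes were not recomputed. The causes were not tested. No value moved on counting distinct rearrangements, leaving out shared barcodes, leaving out invariant cells or taking Pearson correlations over base pairs. No paired analysis was possible because each group had 1 library. With chains of at least 3 UMIs, TRA cells in cluster 5 made up 70.4% in KI and 75.3% in WT. Far V in cluster 5 made up 26.1% in KI and 17.7% in WT by base pairs, 39.5% and 33.4% with the V ranks in 2 equal parts, and 9.21% and 5.20% without near-identical copies in another rank group. Without those copies far V made up 13.3% in KI and 0% in WT other clusters and 18.2% in WT cluster 2, and the correlation was -0.64 in KI cluster 5 and -0.74 in WT cluster 2. Leaving those copies out removed mostly far V chains in cluster 5 and left only part of the 32 chains of WT cluster 2. With the J region in 2 parts near J made up 44.0% in KI and 43.9% in WT cluster 5, and 57.8% and 50% in cluster 2. Chains of WT cluster 5 with no untemplated base made up 12.3% without V with near-identical copies and 24.2% among far J. For segments 2-fold apart between cluster 5 and the other clusters, KI TRAV numbered 1 with at least 3 UMIs, 1 with 1 chain per cell, 5 at 5 chains and 5 each as subfamilies and families; KI TRAJ numbered 9 at 5 chains and 0 at 20; WT TRAV numbered 3 without doublets, 15 at 5 chains, 6 as subfamilies and 4 as families; WT TRAJ numbered 16 at 5 chains and 0 at 20. For segments apart between KI and WT over all cells, TRAV numbered 2 with at least 3 UMIs, 20 at 5 chains, 1 at 20 and 1 as families, and TRAJ 8, 9 and 2 at the first 3 of these. In cluster 5, TRAV numbered 0 with at least 3 UMIs, 1 with 1 chain per cell, 15 at 5 chains, 0 at 20, 5 as subfamilies and 1 as families, and TRAJ 3 with 1 chain per cell and 1 at 20 chains. In cluster 2, TRAV numbered 1 with at least 3 UMIs, 2 at 5 chains and 1 as families, and TRAJ 1 with at least 3 UMIs and 1 at 5 chains. Genes apart in KI blasts numbered 1381 at 5 CPM, 114 at 50 CPM, 3835 in G1 cells (1 TRA blast), 707 in S, 1431 in G2M, 813 in cluster 3 and 987 in cluster 4; in WT blasts they numbered 1476 at 5 CPM, 162 at 50 CPM, 2877 in G2M (1 TRA blast) and 1259 in cluster 3, and G1 gave no value because 0 TRA blasts were in it.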
